A study of Mus musculus with 6 samples.

Results

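Collagens are the main structural proteins of the extracellular matrix. Each is a trimer whose chains repeat glycine in each triplet of residues, so that they can wind into a triple helix. Fibrillar collagens form the fibres of the epineurium and meninges around a nerve ganglion, and type IV collagen forms the sheet of the basement membrane that wraps vessels, Schwann cells and satellite glia. Smaller families decorate fibrils, form beaded filaments, anchor basement membranes to the tissue below them, or span the cell membrane. The genes described here are the protein-coding genes whose symbols read Col, a type number, a and a chain number. There were 42 of them among the 17524 genes of the table: 11 fibrillar (types I, II, III, V, XI, XXIV and XXVII), 8 of the basement membrane group (types IV, XV and XVIII) and 23 others. All 42 passed the filter on low values, and 3 of them averaged under 1 CPM (reads scaled to the library's total).

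RNA was sequenced in bulk from the trigeminal ganglion, which holds the sensory neurons of the face and head, of wild-type (WT) mice. The vehicle group and the NTG group had 3 libraries each, and the series title places the comparison in a study of migraine. The labels do not spell out NTG, and no dose, time, strain, age or sex is given in the sources used here. Libraries held 18813027 to 23774244 reads, and the 14 sensory neuron markers summed to 21139 to 22876 CPM, with none at 0. Nothing says that the 3 libraries of a group came from separate mice, so every p-value refers to variation among libraries that may be technical.

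Of the 42 collagen genes, 18 fell in NTG and 1 rose, with adjusted p under 0.05 in limma over all 17475 genes tested. Over all genes, 13.5% fell and 12.3% rose by the same rule. The count of falls was 11 without NTG replicate 2, and 3 when each library's trend with GC content and length of the transcript was removed. Called in either direction were 25.8% of all genes. The edgeR test on recovered reads called 16 lower and 1 higher, against 13.3% and 12.7% of all genes. The median log2 fold change of the 42 was -0.22, against 0.00 over all genes. All 3 NTG values lay below all 3 vehicle values for 19 of the 42 and above them for 5, against 20% and 19.7% of all genes tested. The genes that fell were led by Col7a1, Col2a1 and Col4a6 in size and by Col1a2, the most abundant, in certainty. The gene that rose was Col28a1. Values below are the deposited normalised counts, and fold changes are NTG over vehicle on the log2(value + 1) scale. In bulk tissue, fewer collagen-making cells and less collagen RNA per cell cannot be told apart.

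A property of the libraries moved with the groups and touches every one of these counts. The slope of a library's log2 values over transcript GC content, per 10 percentage points of GC and relative to the gene's mean over libraries, was 0.11, 0.19 and 0.16 in vehicle. It was -0.21, -0.16 and -0.08 in NTG. The groups do not overlap, so this trend and the NTG treatment cannot be told apart. Collagen transcripts were GC-rich, with a median of 55.4% against 50.4% for protein-coding genes. Called genes and list counts are therefore given as deposited and after the trend over GC content and transcript length was removed from each library. Levels, read shares and marker sums are given as deposited.

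The glycine repeat itself sets part of that base composition, because every glycine codon starts with GG and proline, the other frequent residue of the helix, has codons starting with CC. Chains of 1 collagen type can differ in GC content all the same. The first 45 codons of the longest uninterrupted repeat are shown 5′ to 3′ for 2 pairs of chains that make up the same types, from GENCODE M21 coding sequences. Capitals mark the glycine codon that opens each triplet, and a glycine codon elsewhere in a triplet is in lower case. These pairs are shown because their chains differed in GC content and in how they changed. The windows are coding bases 1432 to 1566 of Col5a3, 631 to 765 of Col5a2, 1201 to 1335 of Col11a2 and 1579 to 1713 of Col11a1.
Col5a3: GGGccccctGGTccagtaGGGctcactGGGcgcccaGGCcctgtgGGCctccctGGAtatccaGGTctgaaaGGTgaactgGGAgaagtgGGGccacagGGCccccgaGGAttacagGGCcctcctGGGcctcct
Col5a2: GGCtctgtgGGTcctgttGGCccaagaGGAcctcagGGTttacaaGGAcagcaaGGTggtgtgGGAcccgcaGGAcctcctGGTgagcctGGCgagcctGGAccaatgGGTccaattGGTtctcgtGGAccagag
Col11a2: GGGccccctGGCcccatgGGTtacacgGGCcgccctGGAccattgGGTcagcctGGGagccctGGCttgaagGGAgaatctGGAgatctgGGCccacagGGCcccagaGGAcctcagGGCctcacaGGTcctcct
Col11a1: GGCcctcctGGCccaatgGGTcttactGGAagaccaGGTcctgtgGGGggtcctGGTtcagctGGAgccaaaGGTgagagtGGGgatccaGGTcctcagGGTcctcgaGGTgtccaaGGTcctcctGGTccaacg
The windows held 68.1% GC in Col5a3 and in Col11a2, against 61.5% in Col5a2 and 63.0% in Col11a1. Over the whole coding sequence, the last base of the codon was G or C in 53.0% of Col5a3 codons and 29.4% of Col5a2 codons. For Col11a2 and Col11a1 the shares were 53.7% and 32.7%. Among all 42 genes this share ran from 28.4% in Col3a1 to 62.7% in Col6a2. The glycine repeat ran without a break for 337 to 344 triplets in types I, II, III, V and XI. It ran for 217 in Col27a1 and 216 in Col24a1, for 30 to 66 in the basement membrane group and for 28 in Col28a1.

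Levels per length, in CPM per kilobase of transcript (RPKM), spanned 3 orders of magnitude in vehicle. Col1a2 led at 93.2 ± 2.34 (SD, n = 3), and its lowest vehicle library lay above the highest of any other collagen gene. Col1a1 followed at 41.5 ± 4.87 and Col4a1 at 39.5 ± 2.44, which did not differ beyond their spread. Then came Col4a2, Col5a3 and Col3a1 between 26.6 and 30.4 RPKM. Col28a1 was the seventh most abundant in vehicle at 19.1 ± 1.47 RPKM and ranked 5 in NTG at 24.6 ± 1.22. In vehicle 11 members reached 10 RPKM, 30 reached 1 and 12 lay under 1, with Col6a4 lowest at 0.09 RPKM. The 6 most abundant genes were thus fibrillar or type IV chains. The chains of specialised basement membranes, Col4a3, Col4a4, Col4a5 and Col4a6, all lay under 1 RPKM.

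**Figure D1:**
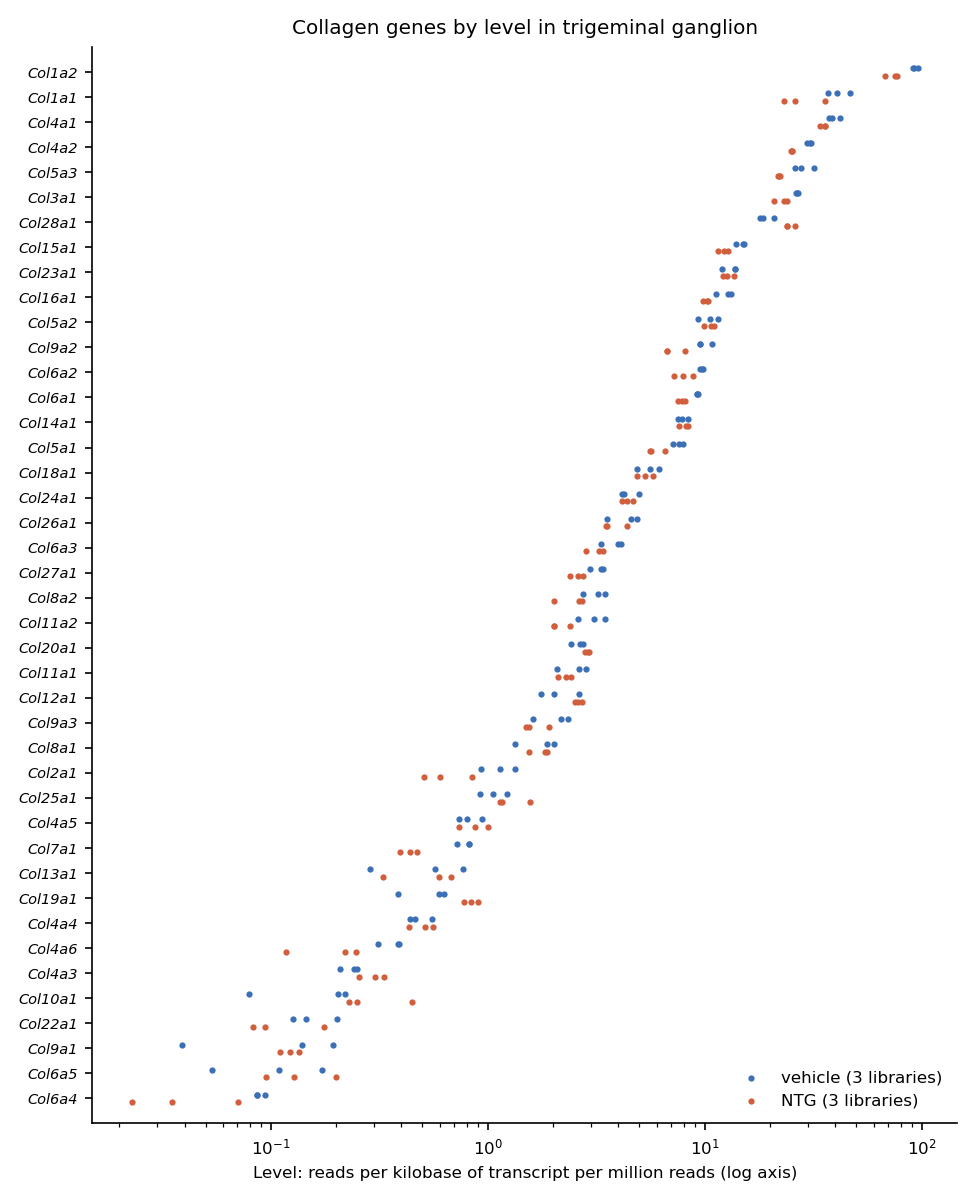
Level of the 42 collagen genes in each library, in RPKM on a log axis; genes are ordered by their vehicle mean, and each point is 1 library (blue vehicle, orange NTG). Col1a2 stands above all other members in vehicle, at 93.2, and Col6a4 is lowest, at 0.09.

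As a share of all reads, the 42 genes took 0.236%, 0.247% and 0.238% in vehicle and 0.207%, 0.192% and 0.212% in NTG, so every NTG library lay below every vehicle library. The fibrillar class took 1269, 1326 and 1306 CPM in vehicle and 1036, 946 and 1097 CPM in NTG, without overlap. The basement membrane class took 567, 607 and 564 CPM in vehicle and 514, 486 and 509 CPM in NTG, also apart. The summed level of the other collagens overlapped, at 522, 539 and 508 CPM against 521, 485 and 509.5 CPM. Type I alone made up 30.1%, 29.7% and 33.2% of collagen reads in vehicle and 26.9%, 26.0% and 29.5% in NTG. The difference in the class sums therefore came mostly from the fibrillar genes.

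Of the 11 fibrillar genes, 7 fell and none rose, with a median log2 fold change of -0.36. Col1a2 encodes the second chain of type I collagen, the bulk of tendon, bone and connective tissue fibres, and lies at chr6:4505618-4541543 (GRCm38, plus strand). It stood at 10041, 10239 and 10635 in vehicle and at 8118, 7444 and 8515 in NTG. The NTG libraries all lay below the vehicle libraries, and the mean fell from 10305 ± 302 to 8026 ± 541 (SD, n = 3; log2 fold change -0.36, SE 0.05, limma adjusted p = 6.59e-05). After the GC and length trend was removed it still fell, by 0.20 on the log2 scale (SE 0.05, limma adjusted p = 0.00503). That second call was lost without NTG replicate 2 (limma adjusted p = 0.0683).

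Col1a1, the partner chain of type I, stood at 4496, 5035 and 5738 in vehicle and at 3138, 2809 and 4365 in NTG. Its groups did not overlap and its mean was 5089.9 ± 623 against 3437 ± 820.2 (SD, n = 3). The libraries of a group were spread widely, and the log2 difference of -0.58 (SE 0.21) did not pass the test (limma adjusted p = 0.119). Without NTG replicate 3, the highest of that group, it did pass (log2 fold change -0.77, limma adjusted p = 5.05e-05). The largest limma adjusted p with 1 library left out was 0.299, and 5 of 25 alternative analyses called it lower. Removal of the trend left it at -0.33 (limma adjusted p = 0.387).

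Col3a1 makes type III collagen, the fine fibres of vessel walls and loose connective tissue, and lies at chr1:45311538-45349706 on the plus strand. It stood at 3042, 3114 and 3027 in vehicle and at 2692, 2394 and 2662 in NTG. The groups were apart and the mean fell from 3061 ± 46.1 to 2583 ± 164 (SD, n = 3; log2 fold change -0.25, SE 0.06, limma adjusted p = 0.00432). At 52.5% GC it had the lowest GC content of the 18 genes that fell, and removing the trend changed its fold change little, to -0.20 (SE 0.05, limma adjusted p = 0.0212). Neither call held without NTG replicate 2 (limma adjusted p = 0.0548 as deposited and 0.212 with the trend removed), and the second was also lost without vehicle replicate 2 (limma adjusted p = 0.0735).

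Type V collagen sits inside type I fibrils and limits their diameter, and its 3 chains did not move alike. Col5a3, the chain with a role in Schwann cell matrix and the most abundant of the 3 per length, stood at 3495, 4048 and 3308 in vehicle and at 2739, 2728 and 2783 in NTG. It fell by 0.39 on the log2 scale (SE 0.07, limma adjusted p = 0.00023), with no overlap. Col5a1, present in nearly all type V trimers, stood at 1317, 1394 and 1240.4 in vehicle and at 1119, 968 and 981 in NTG. It too fell without overlap (log2 fold change -0.37, SE 0.08, limma adjusted p = 0.0012). Col5a2 stood at 1442, 1583 and 1279 in vehicle and at 1481, 1350.2 and 1466 in NTG, so its groups overlapped. Its means were 1435 ± 152 and 1433 ± 71.7 (SD, n = 3), with a log2 difference of 0.00 and a 95% confidence interval of -0.16 to 0.16. Transcript GC was 61.6% for Col5a3, 58.0% for Col5a1 and 49.6% for Col5a2, in the order of their falls. Their differences became -0.05, -0.15 and -0.05 once the trend was removed, and none passed the test.

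The fibrillar collagens best known from cartilage were at lower levels than types I, III and V. Col2a1, the main cartilage collagen, stood at 97.0, 142 and 120.1 in vehicle and at 52.4, 62.9 and 89.3 in NTG. It fell by 0.82 on the log2 scale (SE 0.22, limma adjusted p = 0.009), with the groups apart. The call was lost without vehicle replicate 2 or without NTG replicate 1 (largest limma adjusted p = 0.0638), and with the trend removed (-0.45, limma adjusted p = 0.186). Col11a2, a chain of the thin cartilage fibrils, stood at 428, 387 and 328 in vehicle and at 246, 249.6 and 299 in NTG. It fell by 0.52 on the log2 scale without overlap (SE 0.12, limma adjusted p = 0.00347). Col11a1, its partner chain, overlapped between groups and had a log2 difference of -0.16, with a 95% confidence interval of -0.41 to 0.09. These are the chains with 62.9% and 48.0% GC whose repeats are printed above, and with the trend removed their differences were -0.13 and -0.27, neither past the test. Col27a1, a minor fibrillar chain, fell from 507 ± 35.6 to 403 ± 24.5 (SD, n = 3; limma adjusted p = 0.0154), and stood at -0.07 with the trend removed (limma adjusted p = 0.765). Col24a1 overlapped, with a log2 difference of -0.04. The call of Col27a1 was lost without vehicle replicate 2 or NTG replicate 3 (largest limma adjusted p = 0.0678).

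**Figure D2:**
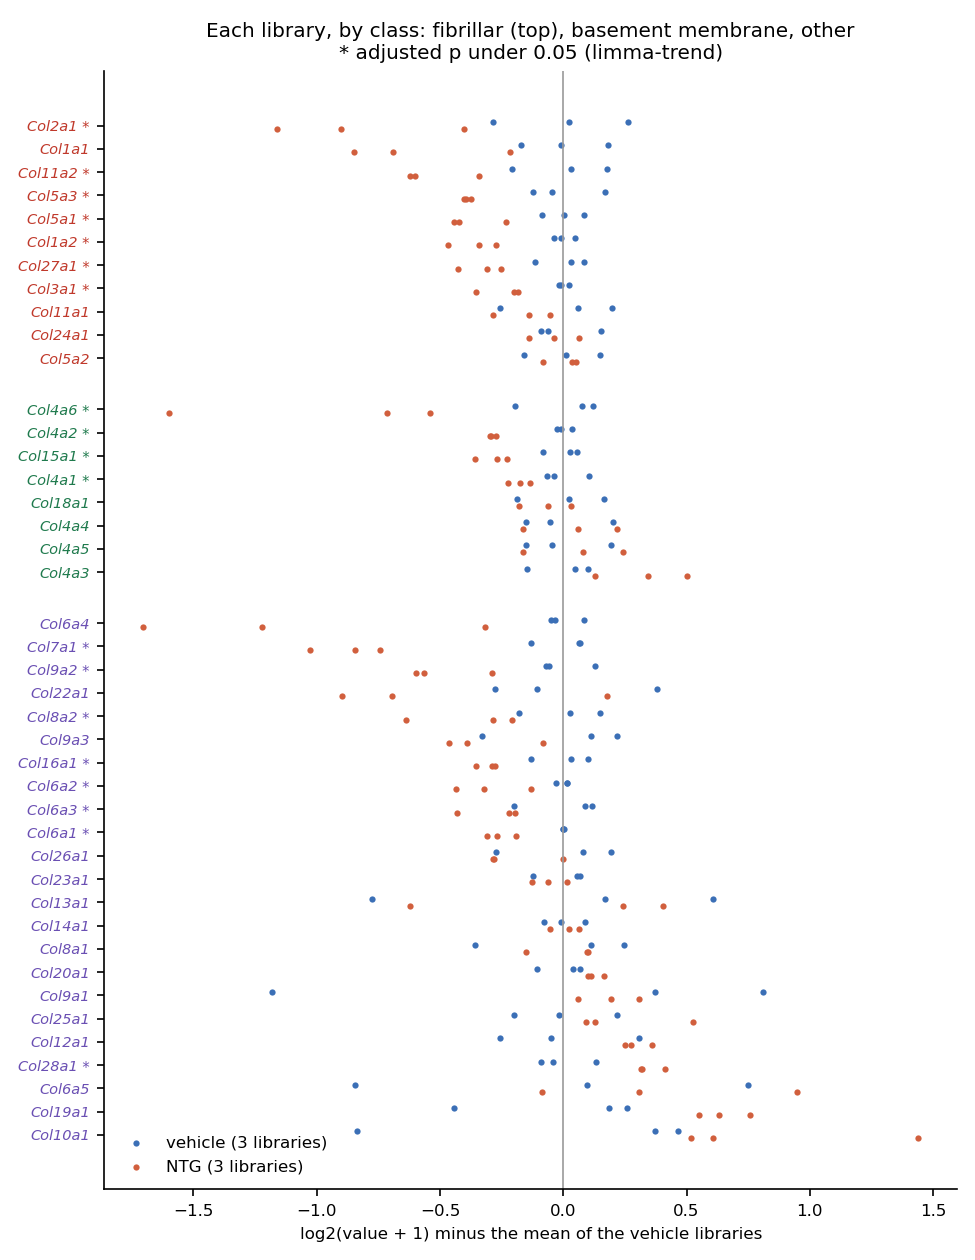
Each library's log2(value + 1) minus the mean of the vehicle libraries, for the fibrillar (red names), basement membrane (green) and other (violet) collagen genes; points are single libraries and an asterisk marks an adjusted p under 0.05 in limma. The fibrillar NTG points lie to the left of 0 for most genes, and Col28a1 is the marked gene to the right.

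In the basement membrane group 4 of 8 fell and none rose, with a median log2 fold change of -0.12. Col4a1 and Col4a2 encode the chains found in nearly every basement membrane, and are transcribed away from each other from a shared promoter region. Col4a2, at chr8:11312805-11449287 on the plus strand, stood at 4021, 4152 and 3978 in vehicle and at 3307, 3296 and 3351 in NTG. It fell by 0.29 on the log2 scale (SE 0.05, limma adjusted p = 0.000501), with no overlap. Col4a1, at chr8:11198423-11312889 on the minus strand, stood at 5259, 5809 and 5152 in vehicle and at 4784, 4620.2 and 4912 in NTG. It fell by less, 0.18 on the log2 scale (SE 0.06, limma adjusted p = 0.0232), also without overlap, and the call was lost without vehicle replicate 2 or NTG replicate 2 (largest limma adjusted p = 0.154). Removal of the trend left Col4a2 at 0.02 and Col4a1 at 0.04, so neither differed in the direction seen as deposited.

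Col15a1, a proteoglycan collagen that links basement membranes to the fibrils beneath, stood at 1485, 1638 and 1603 in vehicle and at 1344, 1228 and 1306 in NTG. It fell without overlap (log2 fold change -0.29, SE 0.07, limma adjusted p = 0.00362), from 1575 ± 79.9 to 1292 ± 59.4 (SD, n = 3). Removal of the trend left -0.10, and the call was lost (limma adjusted p = 0.361). Col18a1, its relative and the source of endostatin, overlapped between groups at 558, 714 and 647 against 651, 562 and 610.4. Its log2 difference was -0.07, with a 95% confidence interval of -0.27 to 0.13, although its 60.8% GC is among the higher values of the 42. The 4 chains of specialised basement membranes, as in the kidney, differed among themselves. Col4a6 fell from 49.8 ± 5.78 to 26.5 ± 9.52 (SD, n = 3; log2 fold change -0.95, SE 0.32, limma adjusted p = 0.0331), with libraries at 52.3, 43.2 and 54.0 against 15.7, 29.9 and 33.8. That call was lost without vehicle replicate 1 or 3 or NTG replicate 1 or 2, in edgeR on the recovered reads (adjusted p = 0.0507), and with the trend removed (-0.86, limma adjusted p = 0.093). Col4a3, Col4a4 and Col4a5 did not pass, at log2 differences of 0.33, 0.04 and 0.05.

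Among the other 23 collagen genes 7 fell and 1 rose, with a median log2 fold change of -0.06. Col28a1, a von Willebrand domain collagen known chiefly from peripheral nerve and its glia, lies at chr6:7997100-8193709 on the minus strand. It stood at 1566, 1829 and 1624 in vehicle and at 2224, 2075 and 2083 in NTG. All NTG libraries lay above all vehicle libraries, and the mean rose from 1673 ± 138 to 2128 ± 83.6 (SD, n = 3; log2 fold change 0.35, SE 0.07, limma adjusted p = 0.00072). With the trend removed the rise was 0.30 (SE 0.06, limma adjusted p = 0.00192). It was called higher in all 25 alternative analyses, in which its log2 fold change ran from 0.25 to 0.42.

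Col7a1, the chain of the anchoring fibrils that tie epithelial basement membranes to the matrix, lies at chr9:108953586-108984875 on the plus strand. It stood at 137, 157 and 158 in vehicle and at 73.3, 89.6 and 83.2 in NTG. The groups were well apart, and the mean fell from 151 ± 11.7 to 82.1 ± 8.19 (SD, n = 3; log2 fold change -0.87, SE 0.17, limma adjusted p = 0.000955). After that removal it fell by 0.55 (SE 0.17, limma adjusted p = 0.0472). This call, just past the threshold, was lost when any 1 of the 6 libraries was left out (limma adjusted p up to 0.155) and when the GC trend alone was removed (limma adjusted p = 0.0635).

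Type VI collagen forms beaded filaments around cells and is abundant in nerve sheaths. Its 3 main chains all fell by similar amounts. Col6a1 stood at 782, 783 and 785 in vehicle and at 651, 631 and 686 in NTG, and fell by 0.26 on the log2 scale (SE 0.08, limma adjusted p = 0.018). Col6a2 stood at 941, 941 and 914 against 745, 689 and 851, and fell by 0.30 (SE 0.08, limma adjusted p = 0.0108). Col6a3 stood at 689, 841 and 858 against 691, 587 and 681, and fell by 0.28 (SE 0.09, limma adjusted p = 0.0314). Col6a3 is the 1 gene of the 18 whose groups overlapped, since vehicle replicate 1 was no higher than the highest NTG library. All 3 calls were lost without NTG replicate 2, with limma adjusted p of 0.0987 to 0.193 in the least favourable of the fits that leave a library out. Other libraries also ended a call: NTG replicate 1 for Col6a1, and vehicle replicates 2 and 3 for Col6a3. Removal of the trend left differences of -0.07, -0.12 and -0.18, and none passed. The minor chains Col6a4, at 13.6 ± 0.73 against 6.46 ± 3.75 (SD, n = 3), and Col6a5, at 21.3 ± 11.4 against 26.8 ± 10.3, did not pass.

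Fibril-associated collagens, which coat fibrils without forming them, were mixed: 2 of 9 fell. Col9a2, a chain of type IX, stood at 571, 655 and 575 in vehicle and at 396, 404 and 489.9 in NTG, and fell by 0.48 on the log2 scale (SE 0.10, limma adjusted p = 0.0013). Col16a1 stood at 1364, 1433 and 1218 against 1093, 1045 and 1103, and fell by 0.31 (SE 0.07, limma adjusted p = 0.00372). Both had no overlap, with 62.7% and 61.4% GC, and with the trend removed they stood at -0.09 and 0.03. The type I fibril partners did not pass: Col14a1 had a log2 difference of 0.01, with a 95% confidence interval of -0.14 to 0.16, and Col12a1 had 0.29 (limma adjusted p = 0.0636). Col19a1 lay higher in every NTG library, at 33.8, 55.6 and 52.9 against 72.3, 68.3 and 78.9, but did not pass (log2 difference 0.65, limma adjusted p = 0.0603). Col20a1 had a log2 difference of 0.13 and Col22a1 of -0.47, with Col9a1 at 0.19 and Col9a3 at -0.31.

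Of the network-forming short chains, Col8a2, known from corneal and vascular matrix, fell from 282 ± 32.2 to 218 ± 33.1 (SD, n = 3; log2 fold change -0.38, limma adjusted p = 0.048). Its libraries were 287, 312 and 248 against 230.5, 180.2 and 243, narrowly apart, and the call was lost in edgeR (adjusted p = 0.0543) and without vehicle replicate 1 or 2 or NTG replicate 1 or 2. It was also lost with the trend removed (-0.11, limma adjusted p = 0.682). Col8a1 had a log2 difference of 0.02. Col10a1, at 0.85, did not pass, and its whole span lies inside Nt5dc1 on the other strand, whose mean value was 3.76 times as high. Reads of the pair could be mixed if strand was ignored in counting. None of the transmembrane collagens passed: Col25a1, found in neurons, had a log2 difference of 0.25, Col23a1 of -0.06 and Col13a1 of 0.01. Col26a1 had -0.19.

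**Figure D3:**
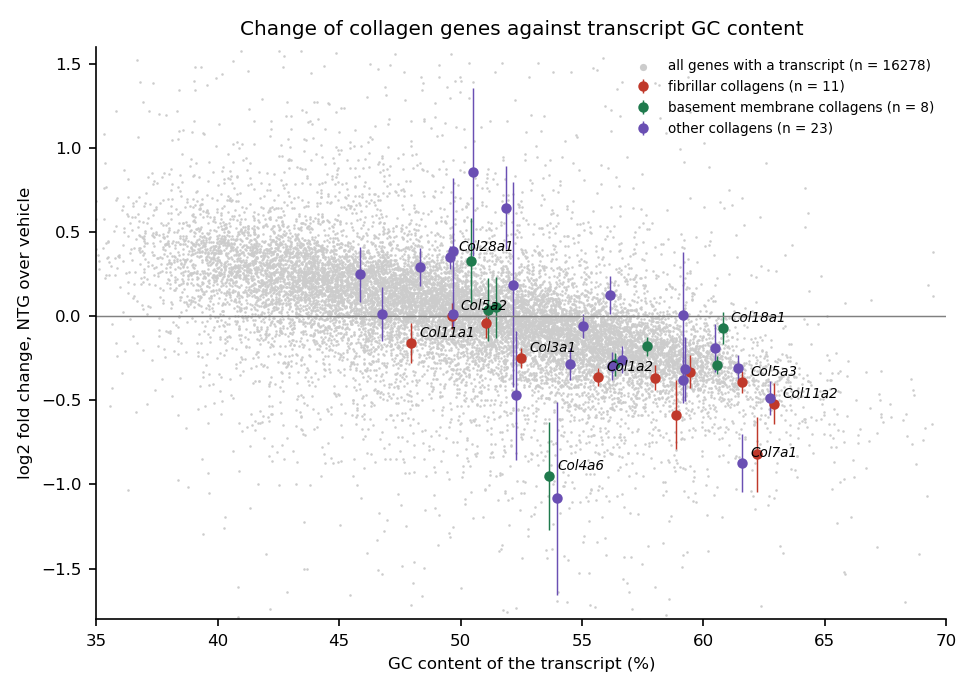
Log2 fold change, NTG over vehicle, against the GC content of the transcript, for collagen genes (coloured by class; bars are the SE from limma) and for all genes with a matched transcript (grey; genes beyond the axes are not drawn). The cloud of all genes slopes downward, the collagens of at least 56% GC have a median of -0.31, and Col28a1 lies above 0 at 49.6% GC.

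The falls followed GC content across the 42 genes. Of the 20 with at least 56% GC, 14 fell and none rose, with a median of -0.31. Among all protein-coding genes in that range 44.1% fell and 0.162% rose, with a median of -0.25. Of the 22 collagen genes under 56%, 4 fell and 1 rose, with a median of 0.01. There 6.3% of protein-coding genes fell and 17.5% rose, with a median of 0.08. The split at 56% was chosen after the values were seen. Spearman's correlation between fold change and transcript GC was -0.69 over the 42 collagen genes and -0.64 over 14932 protein-coding genes. Genes share the same 6 libraries, so these correlations are descriptions. For the last codon base alone the correlation over the 42 was -0.27. The median GC of the genes that fell was 58.6%, and that of the genes not called was 51.5%.

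With the GC and length trend of each library removed, 3 collagen genes fell (Col1a2, Col3a1 and Col7a1) and 1 rose (Col28a1), against 5.5% of all genes falling, 3.49% rising and 8.99% called in either direction. All 4 had been called in the same direction as deposited, and no other member was called. The median over the 42 became -0.05, against 0.01 over all genes. For the 18 that fell as deposited, the median went from -0.35 to -0.12, and 15 of them still had a difference below 0. By class, the medians were -0.15 for the fibrillar genes, with 2 of 11 called, and 0.03 for the basement membrane genes, with none of 8 called. The others had a median of 0.03, with 1 called in each direction. The fibrillar genes thus kept a median below 0 after the correction, while the basement membrane genes did not. Whether the 2 classes differ was not tested.

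**Figure D4:**
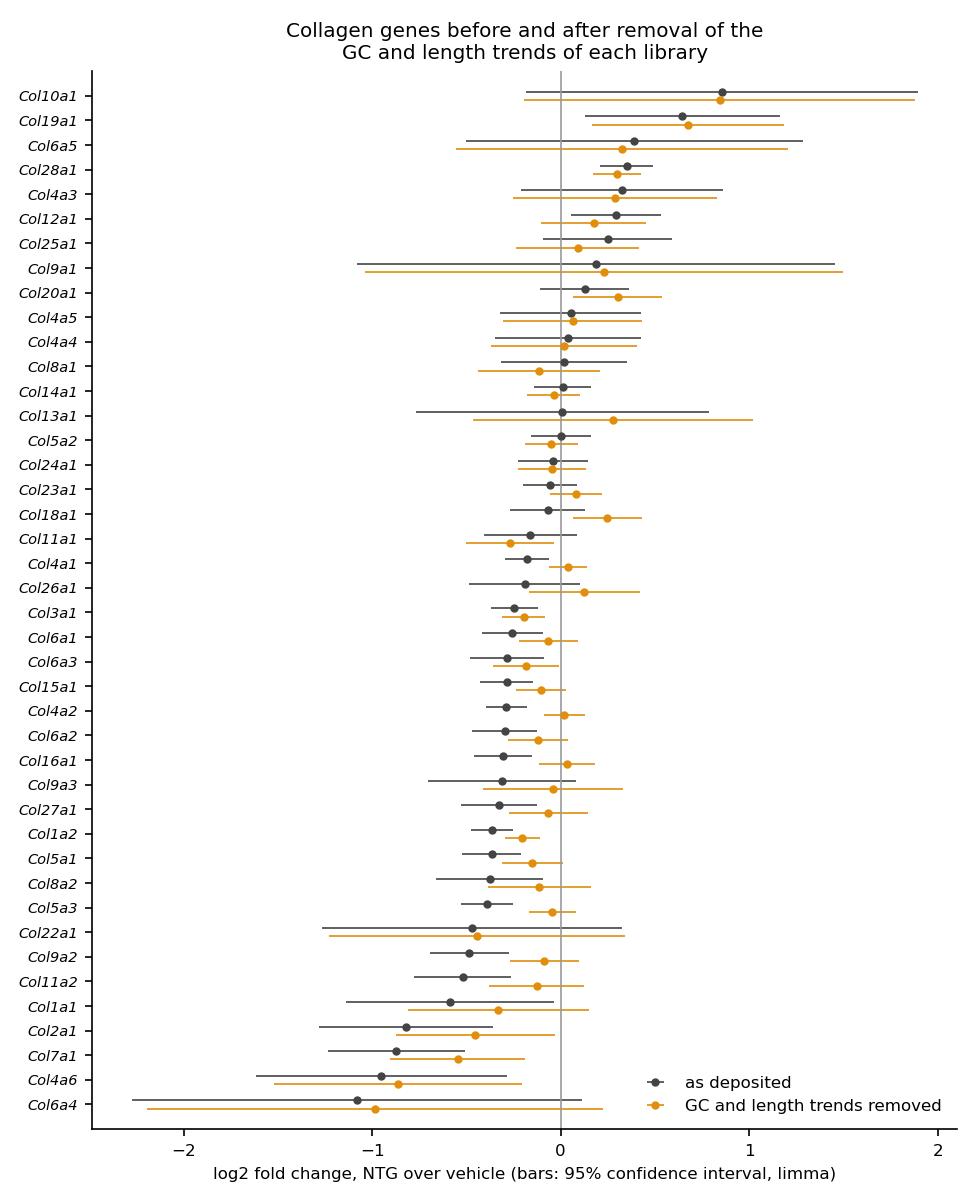
Log2 fold change of each collagen gene as deposited (dark) and with the GC and length trends of each library removed (orange), with the 95% confidence interval from limma. Most genes with a fall move toward 0, and 15 of the 18 called lower as deposited stay below it. Only Col1a2, Col3a1 and Col7a1 are still called lower, and only Col28a1 higher (limma adjusted p under 0.05). The intervals are not adjusted for the number of genes, and some genes not called also have intervals clear of 0.

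Chains of 1 type are assembled into 1 trimer, and their ratio within a library does not depend on how the library was scaled. Of 10 listed pairs, 8 had both chains at 20 or more in every library, and 3 of those had ratios that did not overlap between groups. Among all single genes tested, 20% lay wholly below and 19.7% wholly above in NTG. No such share was computed for ratios of other genes. The log2 ratio of Col5a1 to Col5a2 was -0.12 ± 0.07 in vehicle and -0.49 ± 0.09 in NTG (SD, n = 3; two-sided exact permutation p = 0.1, adjusted 0.267 over the 8 pairs). The ratio of Col11a1 to Col11a2 was 0.06 ± 0.15 and 0.43 ± 0.09, and that of Col4a1 to Col4a2 was 0.41 ± 0.06 and 0.52 ± 0.03, each with the same exact p. That is the smallest p that 3 against 3 can give. In each of these pairs the chain with the higher GC content lay lower in NTG relative to its partner. Once the trend was removed the changes in ratio were -0.10 for Col5a1 to Col5a2, -0.14 for Col11a1 to Col11a2 and 0.02 for Col4a1 to Col4a2. The main type I pair overlapped: the log2 ratio of Col1a1 to Col1a2 was -1.02 ± 0.13 in vehicle and -1.25 ± 0.25 in NTG (SD, n = 3; two-sided exact permutation p = 0.3). The type VI ratios were nearly level, with changes of 0.04 for Col6a1 to Col6a2 and 0.03 for Col6a1 to Col6a3.

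**Figure D5:**
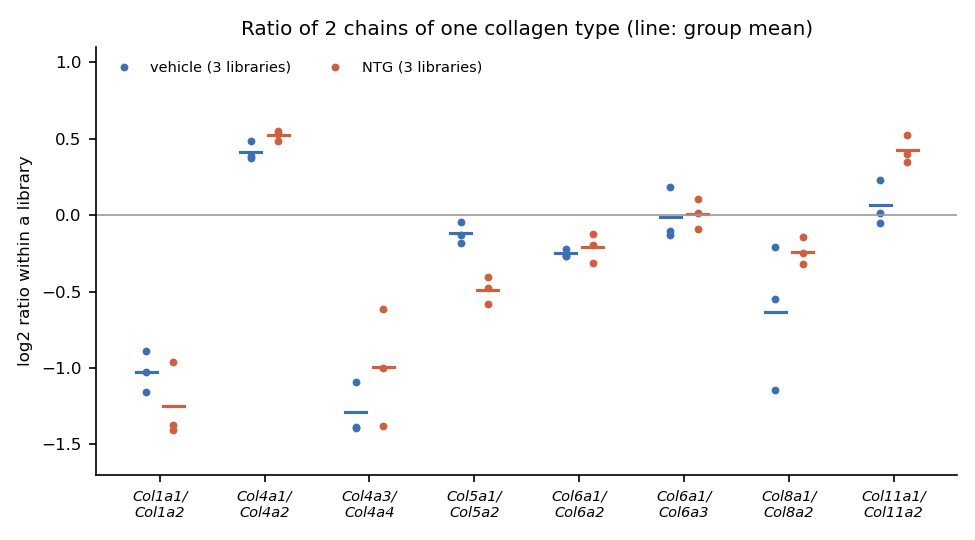
Log2 ratio of 2 chains of the same collagen type within each library, for the 8 pairs with both chains at 20 or more; points are libraries (blue vehicle, orange NTG) and lines are group means. Col4a1/Col4a2, Col5a1/Col5a2 and Col11a1/Col11a2 are apart between groups, and the type VI pairs are level.

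Several collagen genes are neighbours in the genome, and 7 pairs lie within 200000 bases of each other. Col4a1 and Col4a2 stand head to head, as do Col4a3 with Col4a4 and Col4a5 with Col4a6. Within the X-linked pair Col4a6 fell by 0.95 on the log2 scale while Col4a5 differed by 0.05. Col3a1 and Col5a2 stand tail to tail, 24624 bases apart, and Col3a1 fell while Col5a2 had a difference of 0.00. Members with overlapping genes on the other strand could share reads if strand was ignored. Besides Nt5dc1 at Col10a1 and the head-to-head pairs, the highest was C430014B12Rik at Col4a3, with 0.56 times the mean of Col4a3.

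The 250 bases upstream of the start are shown for the 3 genes that fell both as deposited and with the trend removed, in the direction of transcription, from RefSeq on GRCm38.p6. Capitals mark GGGCGG (a GC box), CCAAT and TATAAA, searched on both strands, so that a CCAAT on the other strand reads ATTGG. The motifs do not overlap one another here. The windows are chr6:4505368-4505617 for Col1a2, chr1:45311288-45311537 for Col3a1 and chr9:108953336-108953585 for Col7a1, all on the plus strand.
Col1a2: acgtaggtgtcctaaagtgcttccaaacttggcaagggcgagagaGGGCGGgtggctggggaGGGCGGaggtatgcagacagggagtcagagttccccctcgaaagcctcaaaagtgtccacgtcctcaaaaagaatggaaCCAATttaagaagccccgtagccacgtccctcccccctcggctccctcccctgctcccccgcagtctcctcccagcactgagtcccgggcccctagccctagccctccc
Col3a1: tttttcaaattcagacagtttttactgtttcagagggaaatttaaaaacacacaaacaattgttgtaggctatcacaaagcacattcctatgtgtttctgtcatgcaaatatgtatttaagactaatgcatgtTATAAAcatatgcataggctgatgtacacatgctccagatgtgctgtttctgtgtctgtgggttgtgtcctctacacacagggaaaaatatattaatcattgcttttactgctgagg
Col7a1: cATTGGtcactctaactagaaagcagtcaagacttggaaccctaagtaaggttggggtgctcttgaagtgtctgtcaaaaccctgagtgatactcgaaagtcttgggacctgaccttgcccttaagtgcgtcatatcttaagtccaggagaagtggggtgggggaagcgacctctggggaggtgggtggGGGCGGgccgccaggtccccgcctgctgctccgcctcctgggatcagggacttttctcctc
Col1a2 had 2 GC boxes and 1 CCAAT in 62% GC, Col7a1 had 1 of each in 56.4% GC, and Col3a1 had 1 TATAAA in 35.2% GC. No single motif was common to all 3 windows. Of the 33 members matched in the promoter table, 20 held GGGCGG, 12 held CCAAT and 4 held TATAAA in at least 1 window. Some members, such as Col18a1, had more than 1 window. Over all 32817 promoters of the same length, counted per promoter and not per gene, the shares were 32.7%, 33.8% and 12.4%. The 2 counts are thus not in the same unit. A match is a run of letters and not a measured binding site.

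Collagen chains need a set of enzymes before they leave the cell, and most of these, like most genes, did not pass the test. Beside the counts of this list and of all lists that follow, 13.5% of all genes fell and 12.3% rose. With the trend removed, those shares were 5.5% and 3.49%. Of 21 genes for folding and modification in the endoplasmic reticulum, 1 rose and 2 fell, with a median of -0.05. P3h3, a prolyl 3-hydroxylase family member, fell from 415 ± 13.5 to 302 ± 18.9 (SD, n = 3; log2 fold change -0.46, limma adjusted p = 0.00249). Plod3, which hydroxylates and glycosylates lysines, fell by 0.21 (limma adjusted p = 0.0218), and Mia3, the export receptor for bulky procollagen, rose by 0.24 (limma adjusted p = 0.00371). Of 14 propeptide proteinases, enhancers and lysyl oxidases, 1 rose and 2 fell, with a median of -0.08. Lox, which cross-links fibrils, rose from 262 ± 10.5 to 365 ± 40.7 (SD, n = 3; log2 fold change 0.47, limma adjusted p = 0.00429), opposite to the fibrillar chains. Bmp1, the C-propeptide proteinase, and its enhancer Pcolce fell by 0.27 and 0.32 (limma adjusted p = 0.0289 and 0.0205). None of these 6 passed with the trend removed. Instead 1 other gene of the folding list was then called higher and 1 other gene of the second list lower.

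Proteins that bind fibrils were also mixed, with 1 of 19 higher and 1 lower and a median of 0.00. Ogn, a small leucine-rich proteoglycan of fibrils, rose from 2717 ± 70.1 to 4119 ± 279 (SD, n = 3; log2 fold change 0.60, limma adjusted p = 2.06e-06). With the trend removed it still rose, by 0.21 (limma adjusted p = 0.00833). Tnxb, a tenascin that spaces fibrils, fell by 0.28 (limma adjusted p = 0.00853) and stood at 0.00 with the trend removed. Of 12 collagen receptors 3 rose and 3 fell, with a median of 0.00. The integrin chains Itga1 and Itgb1, which together form a collagen receptor, rose by 0.49 and 0.30 (limma adjusted p = 0.00467 and 0.000304). The receptor kinase Ddr1 and the adhesion receptor Adgrg1, which binds type III collagen, fell by 0.27 and 0.26 (limma adjusted p = 0.00556 and 0.00452). None of the 12 was called once the trend was removed.

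Of 19 genes for collagen breakdown and its inhibition, 2 rose and 4 fell, with a median of 0.05. The membrane-bound metalloproteinases Mmp15 and Mmp14 fell by 0.40 and 0.33 (limma adjusted p = 0.000229 and 0.00153). The lysosomal protease Ctsl and the inhibitor Timp3 rose by 0.23 and 0.25 (limma adjusted p = 0.00264 and 0.00289). Among 21 basement membrane genes other than collagens 1 rose and 4 fell, with a median of -0.09. Hspg2 (perlecan), Lama5 and Lamb2 fell by 0.34, 0.35 and 0.18 (limma adjusted p = 0.00305, 0.00586 and 0.0348), and Lama2, the laminin chain of Schwann cell basement membranes, rose by 0.26 (limma adjusted p = 0.00851). Of 19 genes of TGF-beta signalling, a main inducer of collagen transcription, 2 rose and 5 fell, with a median of -0.11. Creb3l1, a transcription factor of type I collagen genes, fell from 281 ± 51.1 to 169.7 ± 27.9 (SD, n = 3; log2 fold change -0.72, limma adjusted p = 0.00168). Scx, another activator of type I genes, fell by 0.42 (limma adjusted p = 0.00397), as did the latency proteins Ltbp3 and Ltbp4, by 0.41 and 0.33 (limma adjusted p = 0.00015 and 0.00212). With the trend removed, Creb3l1 stood at -0.44 (limma adjusted p = 0.0521), while Scx, Ltbp3 and Ltbp4 stood at 0.01, -0.07 and 0.04. Of the 19 genes, 1 was then called in each direction. In the breakdown and basement membrane lists none was.

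Cell types that make collagen were followed through markers that are not collagens. Of 13 fibroblast markers 1 rose and 1 fell, with a median log2 fold change of -0.09, and their summed level was 696 to 749 CPM in vehicle and 639 to 704 CPM in NTG, overlapping. Cd34 rose by 0.23 and Cygb fell by 0.40 (limma adjusted p = 0.036 and 0.000139). Both calls were lost once the trend was removed (0.17 and -0.14, limma adjusted p = 0.171 and 0.175), and no fibroblast marker was then called. Of 11 markers of perineurial and meningeal cells none rose and 3 fell, with a median of -0.28, and their sum was 808 to 872 CPM against 590.5 to 799 CPM. The median of these markers was -0.08 with the trend removed. The most abundant of them was Ptgds, named here after its values were seen, at 10978 ± 514 against 7660 ± 1898 (SD, n = 3), which did not pass (log2 difference -0.55, limma adjusted p = 0.12). Cldn1 and Tbx18 differed the other way without passing, by 0.69 and 0.39. Foxc1, a transcription factor of the meninges, fell from 369.6 ± 36.5 to 233 ± 29.2 (SD, n = 3; log2 fold change -0.67, limma adjusted p = 0.000538). Slc47a1 and Aldh1a2, of the arachnoid and leptomeninges, fell by 0.50 and 0.49 (limma adjusted p = 0.00738 and 0.0216). All 3 were still lower with the trend removed, by 0.50, 0.52 and 0.50 (limma adjusted p = 0.00798, 0.00792 and 0.034). These markers moved with the groups in the same direction as Col1a2 and Col3a1, and their part in the collagen falls was not tested.

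Other marker lists moved less or in both directions. The 11 endothelial and the 11 mural markers had overlapping sums, at 235 to 281 against 241 to 249.9 CPM and 227 to 249 against 241 to 246 CPM. In the endothelial list Tek rose and Cldn5 and Vwf fell, and in the mural list Rgs5 rose and Tagln fell (limma adjusted p = 0.0161, 0.0205, 0.00857, 0.0068 and 0.0274). Schwann cell markers, with 2 of 11 higher and 5 lower, summed to 15721 to 17128 CPM in vehicle and 15001 to 16461 CPM in NTG, overlapping. The 10 satellite glia markers, with 5 higher and 2 lower, summed to 4760.2 to 4891 CPM against 4226 to 4470.4 CPM, without overlap. Apoe, the most abundant of them, fell by 0.28 (limma adjusted p = 7.17e-05) but stood at -0.01 with the trend removed (limma adjusted p = 0.821). Cdh19 and Plce1 rose by 0.78 and 0.50 (limma adjusted p = 2.88e-06 and 3.14e-05). With the trend removed they rose by 0.42 and 0.37 (limma adjusted p = 0.000446 and 0.000237). Fabp7 fell by 0.33 (limma adjusted p = 0.00267), and by 0.54 with the trend removed (limma adjusted p = 6.93e-05). Of the 14 sensory neuron markers 4 rose and 6 fell. The median log2 fold change was 0.13 for the endothelial list, -0.08 for the mural, -0.06 for the Schwann cell, 0.08 for the satellite glia and -0.07 for the neuron list. After the trend was removed, none of the endothelial or mural markers was called, 1 Schwann cell marker was higher and 1 lower, and 3 satellite glia markers were higher and 1 lower. In the neuron list 3 were higher and 3 lower. The 10 cartilage, bone and tendon markers summed to 67.7 to 78.5 against 74.3 to 80.2 CPM, overlapping, with 2 higher and 1 lower, Comp, which fell by 0.63 (limma adjusted p = 0.0324). None of these 10 was called once the trend was removed, and Comp stood at -0.33.

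Skeletal muscle markers were at low levels, and those that changed were higher in vehicle. Of 12 tested, 6 fell and none rose, with a median of -1.08. Once the trend was removed 4 still fell, with a median of -0.95. Their sum was 72.9 to 80.3 CPM in vehicle and 67.3 to 73.2 CPM in NTG, overlapping. Without Pvalb, which sensory neurons also express, it was 12.3 to 20.5 against 6.94 to 7.88 CPM, a sum added after the values were seen. The fast myosin Myh4 fell from 48.3 ± 39.0 to 5.14 ± 1.90 (SD, n = 3; log2 fold change -2.75, limma adjusted p = 0.000804), and stood at -2.69 with the trend removed (limma adjusted p = 0.00129). Tnnt3 was at 0 in 1 NTG library. Muscle and its sheath also contain type I, III, VI and IV collagen, and the part of muscle tissue in the collagen values was not tested.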

How the data were processed

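Bulk RNA of trigeminal ganglia was profiled in 6 libraries, 3 vehicle and 3 NTG, grouped by their labels. TRIzol extraction, poly-T bead enrichment and a strand-specific NEBNext Ultra kit were used, per the labels' protocols. The submitters' processing notes name FastQC, HISAT2 and the build GRCm38. Information on the counter, its strand setting, the annotation and the origin of the size factors is not given in the sources used here. The deposited values are a signal, gene counts divided by a size factor: 100% gave whole reads within a tolerance of 0.01. At the depths reached, 3 reads correspond to 0.126 to 0.159 CPM, for counting error only. No 2 libraries of a group agreed within sampling noise (chi-square of 3.99 to 7.76 per degree of freedom), and each was treated as a sample. Such spread can also be technical, so it does not show that the libraries came from separate mice.

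The filter kept genes with values of 1 or more in 3 or more libraries. They were tested with limma 3.58.1 (limma-trend, robust, two-sided) on log2(value + 1), adjusted by Benjamini-Hochberg over 17475 genes with a threshold of 0.05. Fold changes on this scale can understate the change of low genes. The quasi-likelihood test of edgeR 4.0.16 on the recovered reads called 2227 genes higher and 2317 lower. GC content and length are of the longest coding GENCODE M21 transcript, matched for 93.2% of genes and all 42 members. Their trend was a smooth (mgcv) fitted in each library and subtracted for 16278 genes before the same test. The code was tested on simulated data. All called collagen genes and the chains of types I, III, IV (first 2), V and VI are named, with up to 4 genes of smallest p from each list. The members and lists were chosen with earlier results of these data known.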

Additional observations from a re-analysis of the deposited data

How the results depend on the processing

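Across 25 alternatives, 21 collagen genes were followed: the 14 with the smallest p and the chains of types I, III, IV (first 2), V and VI. Col4a6 and Col8a2, also called as deposited, were left out of this tally. They were called the same way in 10 and 7 of the 25. The 21 genes gave 523 values. Of these, 366 kept direction and side of the threshold, 113 kept direction but were no longer called, 5 became called and 39 changed sign. Outside the settings that removed a GC trend, 314 of 334 kept both, and scalings, pseudocounts and filters left the counts of members within 1.5 times. The number of falls called changed most when the GC trend, which cannot be told apart from the NTG treatment, was removed. The count of collagen genes lower in NTG was 3 with the GC and length trend removed, 4 with the replicate block as well, and 2 with GC alone removed. Over all genes the counts higher and lower were 568 and 895, 841 and 1178, and 541 and 853. Leaving out 1 library gave 11 to 18 collagen genes lower, with 11 without NTG replicate 2, and 1 or 2 higher. Over all genes it gave 1326 to 2250 higher and 1619 to 2420 lower. With the trend also removed it gave 0 to 3 collagen genes lower, with 0 without NTG replicate 2 and 1 without vehicle replicate 2, 1 or 2 higher, and 204 to 660 and 491 to 971 of all genes.

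Same-numbered libraries did not deviate together (correlations 0.00, -0.09 and 0.03), and libraries of unlike number had correlations of -0.09 to 0.09. The main test used no pairing, but 3 libraries per group are too few to exclude one. A replicate block gave 2 collagen genes higher and 19 lower, and 2481 and 2773 of all genes. It called Col1a1 lower, which was not called without it (limma adjusted p = 3.74e-05 against 0.119).

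The cause of each sign change was not tested. With the GC and length trend removed, with or without the replicate block, Col4a2 stood at 0.019, Col16a1 at 0.034, Col4a1 at 0.037 and Col5a2 at -0.049. With GC alone removed these were 0.025, 0.037, 0.044 and -0.043. Over the fits that leave a library out, with and without the trend, lowest and highest values were -0.45 and 0.00098 for Col5a3, -0.30 and 0.065 for Col4a2, -0.62 and 0.017 for Col11a2, -0.37 and 0.095 for Col16a1, -0.39 and 0.022 for Col27a1, -0.21 and 0.062 for Col4a1, -0.12 and 0.76 for Col6a5 and -0.12 and 0.076 for Col5a2. With the trend removed, the change in chain ratio went from 0.39 to -0.0019 for Col8a1/Col8a2 and from 0.36 to -0.14 for Col11a1/Col11a2. It kept its sign but shrank to 0.018 for Col4a1/Col4a2 and to -0.10 for Col5a1/Col5a2. Values of low members such as Col6a4, Col6a5 and Col9a1 are limited by depth.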
